A study of Homo sapiens with 4 samples.

Results

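The genes described here make cholesterol and fatty acids, or control, move and remove sterol, and were followed in LNCaP, a human prostate cancer line that responds to androgen. The list holds 36 genes that are regulated by sterol regulatory element-binding proteins (SREBPs) or by the sterol-sensing liver X receptors (LXRs). Genes were retained when their RPKM (reads per kilobase of transcript, scaled to the mapped reads of the library) reached at least 1 in at least 1 library, which left 35 of the 36, out of 14626 genes that passed the same limit among 19801 in the files. The gene that did not pass was ABCA1, a cholesterol efflux pump with LXR-driven expression, whose RPKM was 0.63 without and 0.21 with AIL on empty vector, and 0.12 without and 0.16 with AIL on AR1-651. The gene nearest the limit on the other side was STARD4, which reached 4.0 with empty vector. These RPKM values chose the genes, and the list was drawn up with earlier results of the same libraries known, so its levels and counts are given as descriptions with no test.

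LNCaP cells were transfected for 24 h with empty vector or with the plasmid labelled AR1-651, and were then left untreated or given AIL (ailanthone, a natural compound from Ailanthus altissima) for the next 12 h. Each plasmid was thus studied without and with AIL, all in the same cell line and in medium with serum. Each condition is 1 library, so replicate error is unknown, no p-value can be set beside any difference below, and none was checked in a further sample. The dose of AIL is not given in the labels. In RNA from whole cultures, fewer cells of a type and less RNA per cell cannot be told apart. No sorting of transfected cells is described, and the share of cells carrying a plasmid is not given in the sources used here.

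Cells build cholesterol from acetyl-CoA through mevalonate, squalene and lanosterol, and fatty acids through malonyl-CoA. SREBP-2, from SREBF2, mainly drives the cholesterol genes, and SREBP-1, from SREBF1, mainly the fatty acid genes. Both are made as membrane-bound precursors in the endoplasmic reticulum, escorted to the Golgi by SCAP and cut there to release the transcription factor, whereas INSIG proteins retain SCAP when sterols are plentiful. LXRs turn on genes for sterol efflux. Androgens are known to raise lipid synthesis in LNCaP cells through SREBPs.

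Among whole-library values that touch these genes, RPKM summed to 502594 without and 535851 with AIL on empty vector, and 646882 without and 566155 with AIL on AR1-651. Ribosomal protein genes took 33.2% of the sum in the library labelled AR1-651 and 22.4 to 25.6% in the others. Read counts were not used and the depth is unknown. Short genes with low RPKM shared recurring ratios between libraries, which gave a depth relative to empty vector of 0.948 for empty vector + AIL, 1.09 for AR1-651 and 1.12 for AR1-651 + AIL. Of the luminal prostate markers, all 9 listed were detected in every library (summed RPKM 1617 to 3836), whereas the fibroblast list summed to 2.40 to 5.55, the endothelial list to 0.17 to 0.72, the immune list to 8.99 to 12.8, nearly all of it CD68, and the liver list to 0.90 to 1.44. KLK3, an androgen-induced gene, reached 1442 with AR1-651 against 287 with empty vector. Conditions are named by their labels, and every statement on AR1-651 refers to the library so labelled.

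Genes of this pathway share promoter elements, and the 200 bases before the annotated start are printed for 8 of them because they span what follows, namely genes that AIL lowered (SREBF2, INSIG1, LSS, MSMO1, TMEM97), genes of the same pathway that it did not lower 2-fold (MVK, FDPS) and the gene that it raised at least 2-fold in both backgrounds (MYLIP). Capitals mark TCACNCCAC, a sterol regulatory element, and CCAAT, the box bound by NF-Y, on either strand (CCAAT on the other strand reads ATTGG). Sequences are from RefSeq on GRCh38.p14, 5′ to 3′ on the strand of the gene.
SREBF2 (chr22:41832905-41833104, plus strand): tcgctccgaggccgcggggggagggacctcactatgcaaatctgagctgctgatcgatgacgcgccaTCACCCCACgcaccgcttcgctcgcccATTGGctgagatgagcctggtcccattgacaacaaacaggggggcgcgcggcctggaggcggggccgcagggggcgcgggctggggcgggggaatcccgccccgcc
INSIG1 (chr7:155297678-155297877, plus strand): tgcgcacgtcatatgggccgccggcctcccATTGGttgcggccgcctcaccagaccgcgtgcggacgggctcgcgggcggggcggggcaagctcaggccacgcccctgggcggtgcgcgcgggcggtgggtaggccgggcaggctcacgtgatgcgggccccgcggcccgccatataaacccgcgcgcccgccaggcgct
LSS (chr21:46228775-46228974, minus strand): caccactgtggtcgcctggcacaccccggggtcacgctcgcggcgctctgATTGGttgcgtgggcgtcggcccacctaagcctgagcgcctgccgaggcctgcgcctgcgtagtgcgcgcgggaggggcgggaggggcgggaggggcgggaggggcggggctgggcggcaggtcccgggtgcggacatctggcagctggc
MSMO1 (chr4:165327469-165327668, plus strand): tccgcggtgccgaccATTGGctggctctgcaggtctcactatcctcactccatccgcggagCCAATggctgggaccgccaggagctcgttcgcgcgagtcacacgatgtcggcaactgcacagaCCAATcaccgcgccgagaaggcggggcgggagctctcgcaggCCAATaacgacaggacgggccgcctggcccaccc
TMEM97 (chr17:28319000-28319199, plus strand): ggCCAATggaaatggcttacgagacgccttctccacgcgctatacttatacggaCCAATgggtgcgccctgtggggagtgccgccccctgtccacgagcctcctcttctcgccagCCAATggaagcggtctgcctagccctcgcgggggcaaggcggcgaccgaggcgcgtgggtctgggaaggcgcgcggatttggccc
MVK (chr12:109573594-109573793, plus strand): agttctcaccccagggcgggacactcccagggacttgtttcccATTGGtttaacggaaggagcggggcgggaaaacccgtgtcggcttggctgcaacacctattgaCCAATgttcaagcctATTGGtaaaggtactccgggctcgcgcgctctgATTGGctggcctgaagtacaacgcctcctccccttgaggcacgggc
FDPS (chr1:155308666-155308865, plus strand): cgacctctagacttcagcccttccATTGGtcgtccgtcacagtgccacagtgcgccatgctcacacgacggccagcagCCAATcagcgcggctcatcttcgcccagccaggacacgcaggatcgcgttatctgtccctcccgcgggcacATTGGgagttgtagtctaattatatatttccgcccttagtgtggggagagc
MYLIP (chr6:16128886-16129085, plus strand): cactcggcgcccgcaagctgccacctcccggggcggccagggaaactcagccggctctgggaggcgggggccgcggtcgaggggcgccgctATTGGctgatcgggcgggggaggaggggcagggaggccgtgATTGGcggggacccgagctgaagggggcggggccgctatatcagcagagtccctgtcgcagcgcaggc
TCACNCCAC on either strand was found in the promoter window (250 bases before to 50 after the start) of 1 of 30 genes with a sequence, SREBF2, against 1.44% of 11173 expressed genes with a window and 1.39% of all 27305 genes. Only this exact form was searched, so a sterol regulatory element that differs from it by a base would be missed. CCAAT was found in 23 of 30 (76.7%), against 43.3% of expressed genes and 39.7% of all genes. GGGCGG, the Sp1 box, was in 29 of 30 (96.7%), against 74.3% of expressed genes and 48.3% of all genes, and CACGTG, an E-box, was in 4 of 30 (13.3%), against 12.2% and 8.77%. The list was chosen as SREBP-regulated genes, for which NF-Y and Sp1 are known partners, so these shares describe the list. The CCAAT box was present in 8 of 9 genes at least 2-fold lower with AIL in both backgrounds and in 15 of the 21 other genes. Whether it goes with the response to AIL was not tested. ACAT2, FDFT1, SQLE, FASN and ABCG1 had no entry in the promoter table.

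The first question was what AIL did to these genes in each background. Changes are differences of log2(RPKM + 1), on which low genes change by less than their RPKM ratio, and a gene counted as raised or lowered at a change of at least 1 (2-fold). With empty vector, AIL lowered 11 of the 35 genes (31.4%) at least 2-fold, against 9.03% of all 14626 genes, and raised 2 (5.71%), against 9.53%. With AR1-651, AIL lowered 12 genes (34.3%), against 5.74% of all genes, and raised 2 (5.71%), against 14.9%. The median change of the 35 genes was -0.49 with empty vector, where the median of all genes was -0.02, and -0.81 with AR1-651, where it was 0.13. The same 11 genes were at least 2-fold lower in both backgrounds, namely INSIG1, LSS, SQLE, TMEM97, SCD, FADS2, FASN, MSMO1, SREBF2, SCAP and ACACA, whereas 2.93% of all genes were. In cells with AR1-651, FADS1 was added to them. The comparison of AIL within AR1-651 and that of AR1-651 with empty vector share the AR1-651 library, so a gene high in that library alone has opposite signs in them. MYLIP was at least 2-fold higher in both backgrounds, where 5.67% of all genes were. Below 0 in both were 25 of 35 genes (71.4%), against 32.2% of all genes, and above 0 in both were 4 (11.4%; MVK, HSD17B7, SC5D and MYLIP), against 38%.

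**Figure D1:**
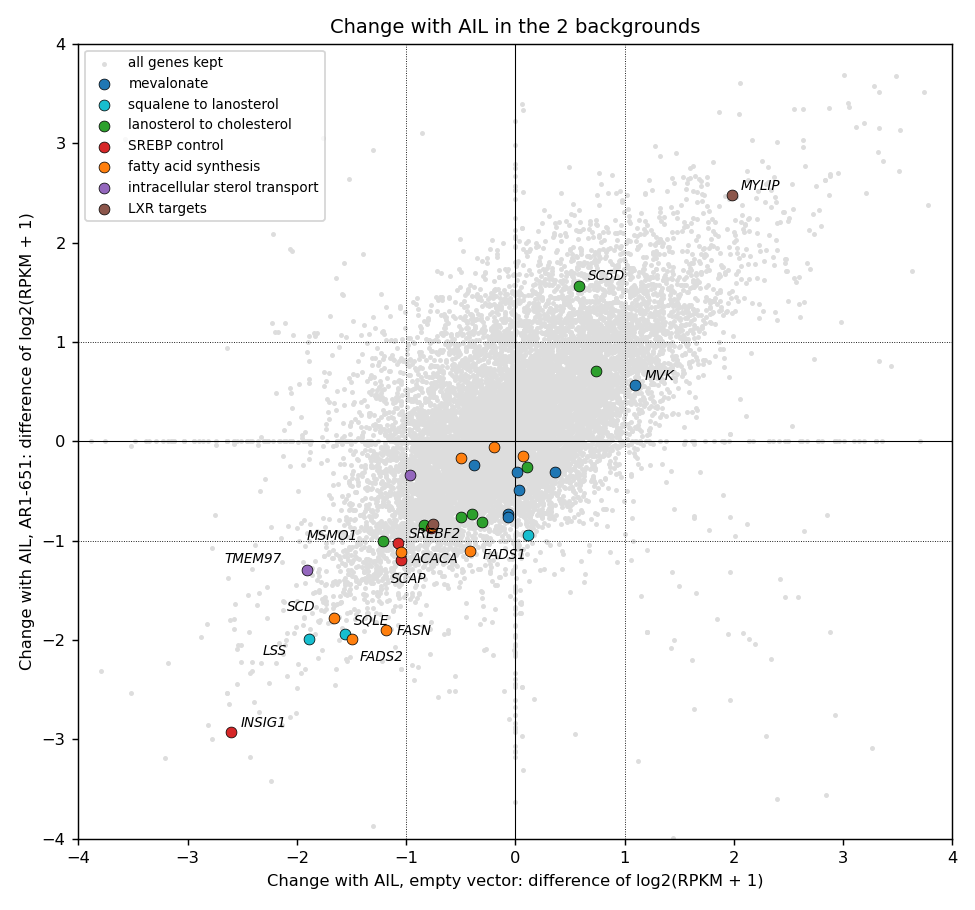
Change of each gene with AIL as a difference of log2(RPKM + 1), in cells with empty vector (horizontal axis) and with AR1-651 (vertical axis). Grey points are the 14626 genes kept (26 lie beyond the limits of 4 and are not drawn), coloured points the 35 genes by role, and dotted lines mark 2-fold; each point compares single libraries. INSIG1 is at the lower left at -2.60 and -2.92 and MYLIP at the upper right at 1.98 and 2.48.

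Of the SREBP machinery, all 4 genes had lower RPKM with AIL in both backgrounds, against 32.2% of all genes. At least 2-fold lower were 3 of 4 in each, against 9.03% of all genes with empty vector and 5.74% with AR1-651. INSIG1, which is both a sterol-dependent brake on SREBPs and one of their target genes, had the largest fall of the 35 genes. On empty vector it had 55.1 RPKM without and 8.27 with AIL, and on AR1-651 49.1 without and 5.60 with AIL. Both libraries with AIL were thus far below both without it. The changes were -2.60 and -2.92, ranks 53 and 27 from the lowest of 14626 genes. SREBF2, which encodes SREBP-2, had 34.9 RPKM without and 16.1 with AIL on empty vector, and 19.3 without and 8.97 with AIL on AR1-651, so that AIL changed it by -1.07 and -1.02. SCAP, the escort of the precursors, had 32.2, 15.1, 19.6 and 8.0 RPKM in the same order, with changes of -1.04 and -1.19. For SREBF2 and SCAP, empty vector + AIL and AR1-651 lay close together, between empty vector and AR1-651 + AIL. SREBF1, which encodes SREBP-1, went from 79.6 to 46.1 RPKM with empty vector and from 35.8 to 19.1 with AR1-651, changes of -0.77 and -0.87 that did not reach 2-fold. The RPKM of SREBF1 covers the whole gene and does not separate its isoforms.

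No gene of the early part of cholesterol synthesis fell as far as INSIG1. Of the 7 genes from acetyl-CoA to farnesyl diphosphate, AIL lowered 0 at least 2-fold in either background, and it raised 1, MVK, with empty vector. Of all genes, AIL lowered 9.03% with empty vector and 5.74% with AR1-651, and raised 9.53% with empty vector. Below 0 with AIL were 3 of the 7 with empty vector and 6 of the 7 with AR1-651. Of all 14626 genes, 7452 and 6215 were. HMGCS1, the synthase that makes HMG-CoA, had 22.6 RPKM without and 17.1 with AIL on empty vector, and 23.3 without and 19.6 with AIL on AR1-651, changes of -0.38 and -0.24. Its 4 libraries lay close together in RPKM as deposited. HMGCS1 and INSIG1 are both SREBP targets, and why they differed was not tested. After correction for transcript length and GC content, the change of HMGCS1 with AIL was -0.42 with empty vector and -0.90 with AR1-651. MVK, mevalonate kinase, went from 18.5 to 40.7 RPKM with empty vector (1.1) and from 17.3 to 26.1 with AR1-651 (0.57). PMVK, the next kinase, had 102, 97.7, 166 and 99.7 RPKM in the same order. MVD, the decarboxylase that follows, had 33.3, 33.7, 34.98 and 28.1 in the same order. MVD thus varied little, whereas PMVK stood out in the library labelled AR1-651 alone. FDPS, farnesyl diphosphate synthase, had 93.3 RPKM with empty vector and 89.3 with empty vector + AIL, a change of -0.06, and 182 with AR1-651 and 107 with AR1-651 + AIL, a change of -0.76. IDI1, the isomerase of isopentenyl diphosphate, went from 41.5 to 53.6 RPKM with empty vector (0.36) and from 98.7 to 79.5 with AR1-651 (-0.31). ACAT2, which makes acetoacetyl-CoA, went from 44.6 to 45.8 (0.04) and from 78.6 to 55.8 (-0.49). For these 3 genes and for PMVK, AR1-651 was the highest library. Values of ACAT2, FDPS, HMGCS1 and TMEM97 are less certain, since annotated genes on the opposite strand overlap their exon bases. For ACAT2 these are SOD2-OT1 (45.8%) and the protein-coding genes SOD2 (34.8%) and TCP1 (12.5%). The overlap is 28.9% for FDPS (RUSC1-AS1), 19.9% for HMGCS1 (AC114947.2) and 11.9% for TMEM97 (IFT20). In addition, 8 FDPS pseudogenes are annotated. The library kit keeps strand, but whether counting used it is not given in the sources used here.

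From squalene onwards the picture split between neighbouring enzymes. FDFT1, squalene synthase, had 113 RPKM with empty vector and 122 with empty vector + AIL, a change of 0.11, and 267 with AR1-651 and 139 with AR1-651 + AIL, a change of -0.94. SQLE, squalene epoxidase, which takes the next and rate-limiting step, had 17.6 and 5.32 RPKM with empty vector, without and with AIL, and 20.2 and 4.55 with AR1-651. Its changes were -1.56 and -1.93. LSS, which closes squalene epoxide into lanosterol, fell from 34.5 to 8.60 RPKM with empty vector and from 22.8 to 5.02 with AR1-651, changes of -1.89 and -1.98. For SQLE and LSS, every value with AIL was below every value without it, whereas the highest FDFT1 values were those with AR1-651, with and without AIL.

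Of the 8 enzymes that turn lanosterol into cholesterol, AIL lowered 1 at least 2-fold in both backgrounds, MSMO1, and raised 1 in cells with AR1-651, SC5D. Of all genes, 2.93% were lowered in both backgrounds and 14.9% were raised in cells with AR1-651. MSMO1, the sterol C4-methyl oxidase, had 31.8 RPKM without and 13.1 with AIL on empty vector, and 34.8 without and 16.8 with AIL on AR1-651, changes of -1.21 and -1.01. CYP51A1, the lanosterol demethylase, which acts earlier, had 51.2, 55.3, 71.3 and 59.3 RPKM in the same order, changes of 0.11 and -0.26. SC5D, the C5-desaturase near the end of the pathway, went the other way, from 13.3 to 20.4 RPKM with empty vector (0.58) and from 12.0 to 37.5 with AR1-651 (1.57). After correction for transcript length and GC content, its change with AR1-651 was 0.76, below 2-fold. DHCR7, which takes the last step of the Kandutsch-Russell branch, went from 71.2 to 39.4 RPKM (-0.84) and from 52.1 to 28.6 (-0.84). HSD17B7, a ketosteroid reductase, had 23.8 RPKM without and 40.4 with AIL on empty vector, and 34.1 without and 56.4 with AIL on AR1-651, changes of 0.74 and 0.71. HSD17B7 has 2 annotated pseudogenes named after it, CYP51A1 has 3, TMEM97 has 2, and SCD and FADS2 have 1 each, and reads may be split between gene and pseudogene. The remaining enzymes had changes between -0.31 and -0.81 with AIL. TM7SF2, a C14-reductase with the highest RPKM of the 35 genes on empty vector, had 282 without and 199.8 with AIL on empty vector, and 264 without and 155 with AIL on AR1-651. EBP, an isomerase, had 49.5, 39.9, 77.2 and 43.5 RPKM in the same order, and NSDHL, a sterol dehydrogenase, had 23.7, 17.8, 31.4 and 18.5.

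**Figure D2:**
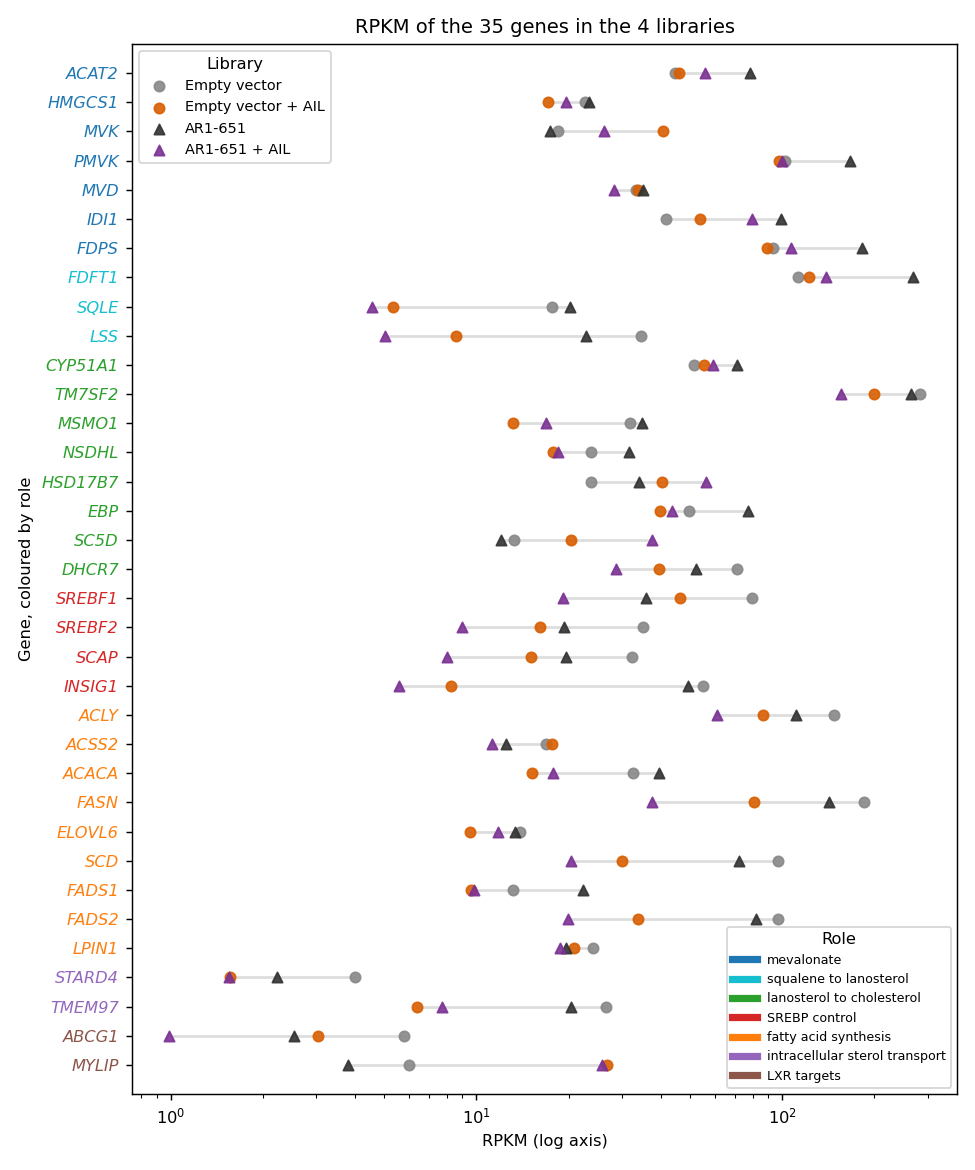
RPKM of the 35 genes (log axis) in the 4 libraries, 1 point per library, with gene names coloured by role. For INSIG1, SQLE, LSS, SCD and FADS2 both AIL libraries sit well to the left of both libraries without AIL, whereas for MYLIP they sit to the right at 25.7 and 26.7 RPKM and for HMGCS1 all 4 libraries lie between 17.1 and 23.3.

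Fatty acid synthesis was lower with AIL in nearly all of its genes. Of 9 genes, 4 were at least 2-fold lower with empty vector (ACACA, FASN, SCD and FADS2), against 9.03% of all genes. With AR1-651, 5 were (the same genes and FADS1), against 5.74% of all genes. All 9 were below 0 with AR1-651, as were 6215 of all 14626 genes. With an equal sum, however, ACSS2 (0.03), ELOVL6 (0.01) and LPIN1 (0.12) were above 0 there. FASN, the fatty acid synthase, had 185 RPKM without and 80.7 with AIL on empty vector, and 142 without and 37.3 with AIL on AR1-651, changes of -1.18 and -1.90. SCD, which introduces the first double bond, went from 96.4 to 29.9 RPKM (-1.66) and from 72.3 to 20.3 (-1.78). FADS2, the delta-6 desaturase, went from 96.8 to 33.7 (-1.49) and from 81.9 to 19.9 (-1.99). For FASN, SCD and FADS2 the order of the libraries was the same, with empty vector highest, then AR1-651, empty vector + AIL and AR1-651 + AIL. ACACA, acetyl-CoA carboxylase, had 32.4 RPKM without and 15.2 with AIL on empty vector, and 39.6 without and 17.8 with AIL on AR1-651, changes of -1.04 and -1.11. FADS1, the delta-5 desaturase that lies beside FADS2 on chromosome 11, had 13.1, 9.59, 22.3 and 9.80 RPKM, changes of -0.42 and -1.11. The change of FADS1 in cells with AR1-651 starts from its highest library. ACLY, ATP citrate lyase, which supplies acetyl-CoA from citrate, went from 147 to 86.2 (-0.77) and from 111 to 61.0 (-0.86). ACSS2, which supplies acetyl-CoA from acetate, barely differed, with 16.8, 17.7, 12.5 and 11.2 RPKM and changes of 0.07 and -0.15. ELOVL6, the elongase of saturated fatty acids, had 13.9, 9.56, 13.4 and 11.8 RPKM (-0.50 and -0.17), and LPIN1, a phosphatidate phosphatase, had 24.0, 20.8, 19.6 and 18.8 (-0.20 and -0.06).

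The genes for sterol movement and efflux did not go together. TMEM97, an endoplasmic reticulum protein that binds sterols, had 26.6 RPKM without and 6.37 with AIL on empty vector, and 20.4 without and 7.71 with AIL on AR1-651, changes of -1.90 and -1.29. STARD4, a soluble sterol carrier, was low throughout, with 4.0, 1.56, 2.23 and 1.55 RPKM and changes of -0.97 and -0.34. MYLIP, an LXR target that encodes a ubiquitin ligase for lipoprotein receptors, had 6.02 RPKM without and 26.7 with AIL on empty vector, and 3.79 without and 25.7 with AIL on AR1-651. Its changes of 1.98 and 2.48 were the largest rises of the 35 genes, ranks 202 and 110 from the highest of 14626. ABCG1, a sterol exporter and LXR target, moved the other way, with 5.80, 3.04, 2.53 and 0.99 RPKM and changes of -0.75 and -0.83, and ABCA1 stayed under 1 RPKM in every library. Within each background, ABCG1 was thus lower with AIL, whereas MYLIP was higher.

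Taking each role as the sum of its RPKM, the 4 genes of SREBP control stood at 42.4% of the empty vector library with empty vector + AIL and at 20.7% with AR1-651 + AIL. Fatty acid synthesis stood at 48.5% and 33.3%. The mevalonate genes stood at 106.1% and 116.7%, the genes from squalene to lanosterol at 82.4% and 89.9%, and those from lanosterol to cholesterol at 78.0% and 76.1%. A sum is dominated by its most abundant genes, so that FDFT1 hides the fall of SQLE and LSS in the second of these steps. In the library labelled AR1-651 without AIL, the mevalonate sum was 168.8% and the squalene to lanosterol sum 187.9% of empty vector, whereas SREBP control was 61.3%. With RPKM scaled to an equal sum, these were 131.1%, 146.0% and 47.6%, and the mevalonate sum with empty vector + AIL was 99.5%.

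**Figure D3:**
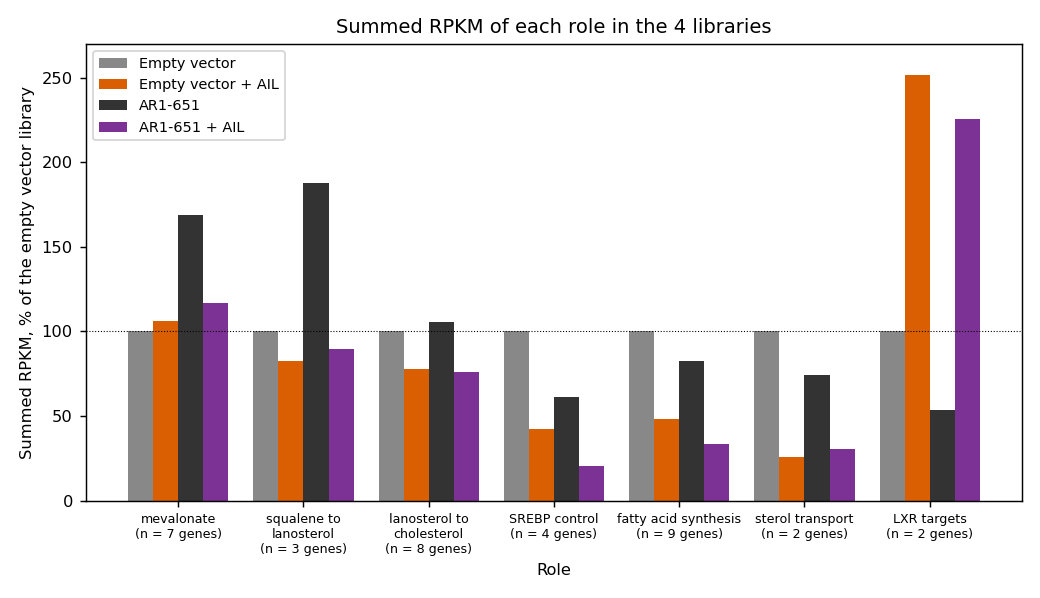
Summed RPKM of the genes of each role in the 4 libraries, as a percentage of the empty vector library (dotted line at 100), 1 library per bar and hence no error bars. SREBP control and fatty acid synthesis are lowest with AR1-651 + AIL (20.7% and 33.3%), whereas the mevalonate and squalene to lanosterol sums are highest with AR1-651 (168.8% and 187.9%).

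The responses to AIL in the 2 backgrounds were set side by side. Across the 35 genes, the change with AIL in cells with AR1-651 followed that in cells with empty vector with Pearson r = 0.901 (Spearman rho = 0.859), against 0.565 (0.588) across all 14626 genes. Most of the 35 genes had RPKM above the library medians of all genes in the files (3.12 to 4.68). The correlations were not compared at matched RPKM. The AIL comparisons in the 2 backgrounds share no library, but they share the cell line and the preparation, and genes are not independent replicates, so the values are descriptions. The change with AIL was lower with AR1-651 than with empty vector for 26 of 35 genes (74.3%), against 39.8% of all genes. That count depends on scaling, since it was 30 (85.7%; all genes 52.4%) with median-ratio scaling and 15 (42.9%; all genes 23.6%) with an equal sum. Whether the responses differ was not tested.

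The next question was what AR1-651 did without AIL. Of the 35 genes, 2 (5.71%) were at least 2-fold higher in the library labelled AR1-651 than with empty vector, against 4.01% of all genes, and 1 (2.86%) was at least 2-fold lower, against 11.6%. The 2 were FDFT1 and IDI1, each with a change of 1.23, and FDPS followed at 0.96, ACAT2 at 0.80, FADS1 at 0.72, PMVK at 0.69 and EBP at 0.63. SREBF1 was the gene that was lower, at -1.13, with ABCG1 at -0.95, SREBF2 at -0.82 and SCAP at -0.69. Of the mevalonate genes, 6 of 7 were above 0 (median 0.69), against 32.2% of all genes, and the 4 genes of SREBP control were below 0 (median -0.76), as were 67% of all genes. HMGCS1 and MVD were below 0 with an equal sum, and SCAP and INSIG1 reached 0.04 and 0.10 in the setting that gave each its highest value. The median over the 35 genes was -0.09 and that over all genes was -0.30. This comparison depends on scaling, since median-ratio scaling moved the median of all genes to -0.08 and scaling to an equal sum moved it to -0.59. Under the 5 settings that change the values (RPKM as deposited, a pseudocount of 0.1, both scalings, and correction for transcript length and GC content), ACAT2, PMVK, IDI1, FDPS, FDFT1, CYP51A1, NSDHL, HSD17B7, EBP and FADS1 were above 0 in every setting, and LSS, DHCR7, SREBF1, SREBF2, ACSS2, LPIN1, STARD4, TMEM97, ABCG1 and MYLIP were below 0. For the other 15 genes, among them INSIG1, SQLE, FASN, SCD and HMGCS1, the direction depended on the setting.

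The last comparison was that of AR1-651 with empty vector in the presence of AIL. Of the 35 genes, 0 had at least 2-fold more RPKM with AR1-651 + AIL than with empty vector + AIL, against 1.46% of all genes, and 3 (8.57%) were at least 2-fold lower, against 3.53%. These were SREBF1 at -1.23, FASN at -1.09 and ABCG1 at -1.02, and none of the 3 reached 2-fold after correction for transcript length and GC content. The mevalonate genes had a median of 0.18, FDFT1 was at 0.18 and IDI1 at 0.56, and SC5D had the highest value, 0.85. This comparison shares no library with that of AR1-651 and empty vector, and the changes of the 35 genes in both had r = 0.70 (rho = 0.728), against 0.281 (0.351) across all genes, which were not matched for RPKM. Both comparisons also vary with GC content or length. With AIL, the change was lower at higher transcript GC content across the 35 genes (rho = -0.688) as across 14005 genes (rho = -0.607), and SREBF1, at 64.7% GC, and FASN, at 65.3%, were among those with the highest GC content (34.2 to 65.6% over the 35 genes). Without AIL, it fell with transcript length across the 35 genes (rho = -0.493) and across all genes (rho = -0.414).

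**Figure D4:**
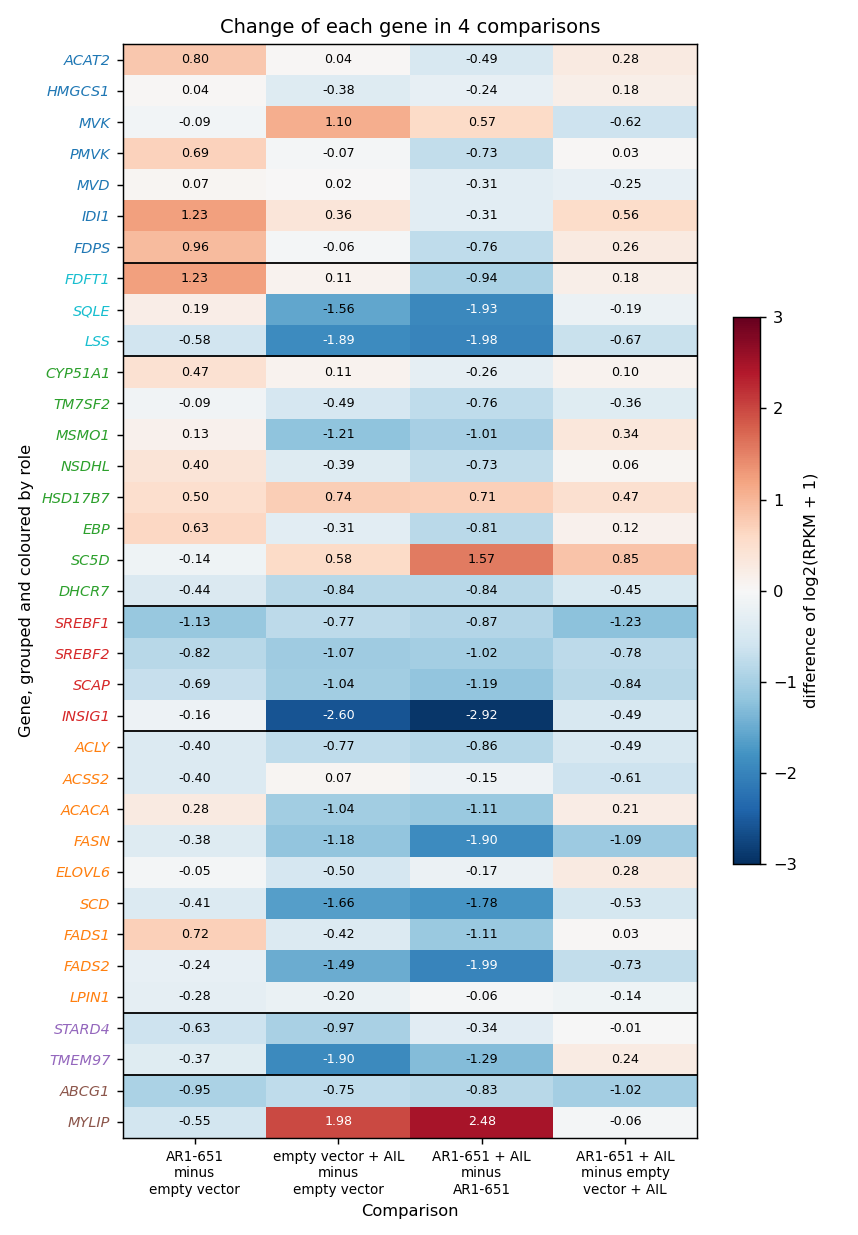
Differences of log2(RPKM + 1) of the 35 genes (rows, grouped and coloured by role) in the 4 comparisons (columns), from single libraries. The columns for AIL are blue for INSIG1, SQLE, LSS, SCD, FADS2 and TMEM97 and red for MYLIP in both backgrounds, and the column for AR1-651 without AIL is red for IDI1 and FDFT1 (1.23 each) and blue for SREBF1 (-1.13).

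Transcript length and GC content moved with these changes, so each gene was also read after removal of that trend, fitted over 14005 genes. The change with AIL in cells with empty vector varied with length across the 35 genes (rho = -0.554; all genes -0.155) and hardly with GC content (-0.017). In cells with AR1-651 it varied across all genes with GC content (rho = -0.407), but less across the 35 genes (-0.155), whereas with length the sign differed, at -0.443 across the 35 genes and 0.156 across all genes. After removal, INSIG1 was at -2.75 and -3.42, SQLE at -1.63 and -2.20, LSS at -1.70 and -1.85, SCD at -1.52 and -2.00, FADS2 at -1.39 and -1.89, TMEM97 at -2.04 and -1.61, MSMO1 at -1.40 and -1.79, and MYLIP at 1.88 and 2.47. These changes were nearly as large as or larger than before. With empty vector, SREBF2 (-0.77), SCAP (-0.79), ACACA (-0.81) and FASN (-0.81) no longer reached 2-fold. With AR1-651, SREBF2 was at -0.92 and SC5D at 0.76, FASN stayed at -1.78, and IDI1 (-1.02), FDFT1 (-1.14) and STARD4 (-1.20) now passed 2-fold. For AR1-651 against empty vector, SREBF1 went from -1.13 to -0.38 IDI1 and FDFT1 stayed at 1.35 and 1.23, and ACAT2 (1.08) and FADS1 (1.19) now passed 2-fold. Between the AIL libraries, SREBF1 (-0.54), FASN (-0.33) and ABCG1 (-0.73) no longer reached 2-fold.

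**Figure D5:**
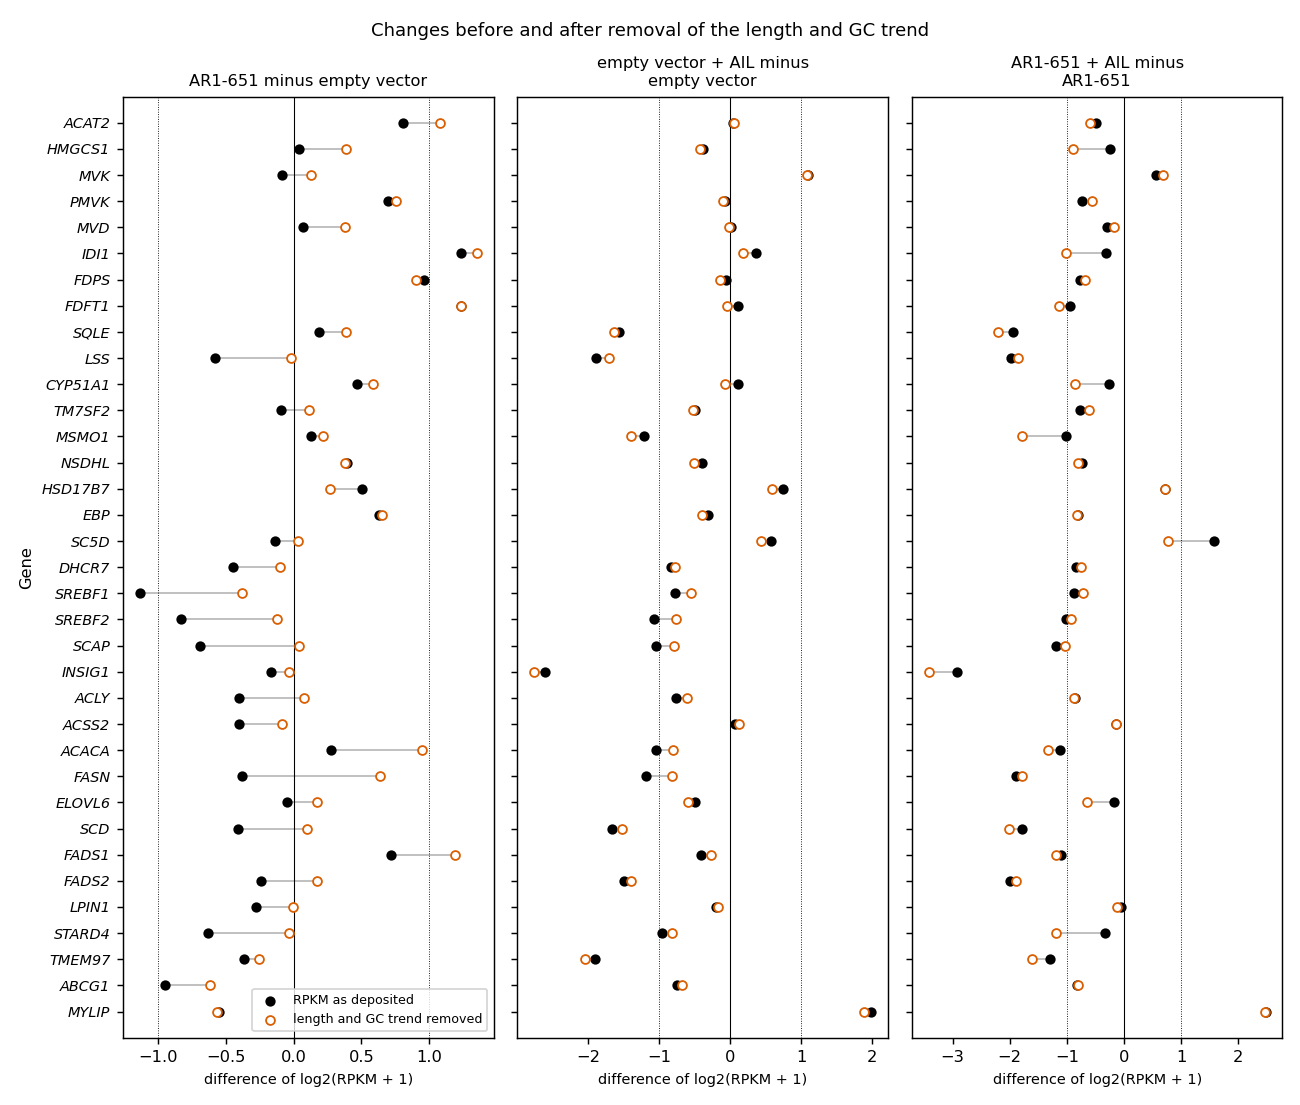
Change of each of the 35 genes in 3 comparisons from RPKM as deposited (black) and after correction for transcript length and GC content (open orange), as differences of log2(RPKM + 1) from single libraries, with dotted lines at 2-fold. INSIG1, SQLE, LSS, SCD, FADS2 and TMEM97 stay below -1 with AIL in both backgrounds, and SREBF1 moves from -1.13 to -0.38 for AR1-651.

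The rest of the pathway was read from lists of 79 other genes, of which 70 passed the RPKM limit. With empty vector, AIL lowered 10 of the 70 (14.3%) and raised 5 (7.14%) at least 2-fold, with a median of -0.16. Of all genes, 9.03% were lowered and 9.53% raised there. With AR1-651, AIL lowered 6 (8.57%) and raised 3 (4.29%), with a median of -0.04, against 5.74% and 14.9% of all genes. AR1-651 without AIL lowered 8 (11.4%) and raised 0, against 11.6% and 4.01% of all genes. The same shares of all genes apply to the counts by list below, which use RPKM as deposited. By list, AIL lowered 2 of 11 other genes of SREBP machinery with empty vector and 1 of 11 with AR1-651. The gene in common was MBTPS1, the site-1 protease that makes the first cut in SREBP precursors, with 24.4 RPKM without and 7.81 with AIL on empty vector, and 15.7 without and 5.61 with AIL on AR1-651 (-1.53 and -1.33). INSIG2, the relative of INSIG1 that SREBPs do not drive, had 17.5, 6.62, 7.71 and 10.8 RPKM, so that its change with AIL was -1.28 with empty vector and 0.44 with AR1-651. INSIG2 was therefore highest with empty vector and did not follow INSIG1 in cells with AR1-651. Of 9 other isoprenoid genes, AIL raised 1 with empty vector and 2 with AR1-651 and lowered 1 and 0. FNTA, a subunit of the enzymes that attach farnesyl and geranylgeranyl groups to proteins, went from 37.2 to 95.3 RPKM (1.33) and from 46.3 to 127 (1.44).

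In the list of 19 other genes of fatty acid elongation, desaturation and activation, AIL lowered 2 and raised 1 with empty vector and lowered 1 and raised 0 with AR1-651. SCD5, a second stearoyl-CoA desaturase, had 25.1 RPKM with empty vector and 9.51, 10.6 and 9.52 in the other libraries in the order used above. SCD5 thus differed between empty vector and all the rest, unlike SCD. Among 13 genes of triglyceride and phospholipid synthesis, AIL lowered 2 and raised 1 in each background. AGPAT3, an acyltransferase, went from 25.6 to 9.51 RPKM (-1.34) and from 13.2 to 5.62 (-1.10), AGPAT1, a related enzyme, from 50.6 to 22.7 (-1.13) and from 21.3 to 11.6 (-0.83), and CHKA, choline kinase, from 9.10 to 22.2 (1.20) and from 12.6 to 26.4 (1.02). Scaling moves such calls, since with median-ratio scaling the change with AIL in cells with AR1-651 was -1.04 for AGPAT1 and 0.81 for CHKA. Of 11 genes of cholesterol uptake, storage and transport, AIL lowered 3 with empty vector and 2 with AR1-651 and raised 0. LIPA, the lysosomal lipase that frees cholesterol from its esters, went from 20.7 to 9.74 (-1.01) and from 27.4 to 9.80 (-1.39), and SCARB1, the receptor for high-density lipoprotein, from 22.7 to 9.82 (-1.13) and from 11.6 to 5.18 (-1.02). Of 7 other LXR factors and targets, AIL raised 2 with empty vector and 0 with AR1-651 and lowered 0. The 2 were NR1H3, with changes of 1.52 with empty vector and 0.76 with AR1-651, and RXRB, with 1.03 and 0.71. Below 0 with AIL were 4 of the 7 with empty vector and 5 with AR1-651, against 7452 and 6215 of all 14626 genes. RXRA, a partner of LXRs, was lower with AR1-651 both without and with AIL (-1.27 and -1.16), with 53.2 RPKM without and 26.8 with AIL on empty vector, and 21.5 without and 11.5 with AIL on AR1-651. ABCA7, a lipid transporter, was likewise lower (-1.18 and -1.09), although with median-ratio scaling its change without AIL was -0.95.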

How the data were processed

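RNA from LNCaP cells in 4 conditions, 1 library each, was made into libraries with an Illumina stranded kit and sequenced, and the authors deposited RPKM per gene, rounded to 2 decimals, by Entrez Gene identifier. The submitters' processing notes name BWA 0.7.10-r789 and hg19. The counting tool, its use of strand and the annotation release are not given in the sources used here. RPKM is not corrected for RNA composition. Symbols came from RefSeq (19703 of 19801 genes), promoters from RefSeq on GRCh38.p14, and the length and GC content of transcripts from GENCODE 29, joined by RefSeq accession (35 of 35 genes). Exon overlaps and promoter windows use reference coordinates, and no coordinate was joined to the hg19 values.

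Differences of log2(RPKM + 1) were calculated over the 14626 genes that reached 1 RPKM in any library, and the threshold was 2-fold. With 1 library per condition no test was run. Alternatives were a pseudocount of 0.1, median-ratio scaling, scaling to an equal sum, no RPKM limit, RPKM of at least 5, a threshold of 1.5-fold, and correction for length and GC content (polynomials of degree 3 on their ranks). Genes named are all 35 of the list and, of the other pathway genes, those past 2-fold in at least 2 of 4 comparisons, at most 4 per list. NR1H3 and RXRB are named in addition, as the genes of their list that AIL raised at least 2-fold. KLK3 and CD68 come from the marker lists. Genes and lists were chosen with earlier results of these data known, and some genes of the pathway and the gene-level check of the AR1-651 label are not reported here. The calculations were tested on simulated RPKM. Python 3.11.15, NumPy 2.4.6 and pandas 2.3.3 were used.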

Additional observations from a re-analysis of the deposited data

Results flagged for a closer look

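For 10 of the 35 genes a change had opposite signs in the 2 backgrounds or without and with AIL, each from single libraries, and the difference was not tested. Values are the change with AIL in cells with AR1-651 minus that in cells with empty vector, on the log2(RPKM + 1) scale. AIL had opposite signs for FDFT1 (-1.05), IDI1 (-0.67), ACAT2 (-0.52), CYP51A1 (-0.37), MVD (-0.32) and ACSS2 (-0.21), all positive with empty vector and negative with AR1-651. These were 6 of 35 (17.1%), against 27.8% of all genes. Apart from IDI1, at 0.36, their changes with empty vector were between 0.02 and 0.11, and for ACAT2, MVD, FDFT1, CYP51A1 and ACSS2 the sign with empty vector depended on the setting. AR1-651 had opposite signs without and with AIL for SC5D (0.99), TMEM97 (0.61), ELOVL6 (0.33) and SQLE (-0.38), and also for MVD, which made 5 of 35 (14.3%), against 34.9% of all genes. For SC5D, ELOVL6, SQLE and MVD the sign of the change without AIL depended on the setting.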

How the results depend on the processing

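Of the 35 genes, 6 (FADS2, INSIG1, LSS, SCD, SQLE and TMEM97) stayed at least 2-fold lower with AIL in both backgrounds, and MYLIP at least 2-fold higher, under every setting that changes values or the RPKM limit; the 11 became 8 with an equal sum and 7 after removal of the trend. For AR1-651 against empty vector, the raised and lowered genes went from 2 and 1 to 4 and 0 with median-ratio scaling (median 0.17; all genes 7.37% and 5.61%), to 0 and 4 with an equal sum (median -0.46; all genes 1.69% and 24.8%), to 4 and 0 after removal of the trend (median 0.17; all genes 4.71% and 3.78%) and to 7 and 5 at 1.5-fold (all genes 10.7% and 32.3%). A pseudocount of 0.1 gave 2 lowered (all genes 20.8%). With AIL in cells with AR1-651, 17 genes were lowered with median-ratio scaling (median -0.98), 8 with an equal sum (median -0.62) and 22 at 1.5-fold (all genes 8.68%, 3.94% and 14.7%), and 1 was raised after removal of the trend (all genes 8.28%). With AIL in cells with empty vector, 7 were lowered after removal (all genes 8.4%). Between the AIL libraries, 1 was raised and 9 lowered at 1.5-fold (all genes 7.73% and 15.5%), and 0 were lowered after removal (all genes 1.36%). The cause of these shifts was not tested. Of the changes of single genes, none past 2-fold with RPKM as deposited changed sign under these settings. SCAP, for AR1-651 against empty vector, passed 2-fold with an equal sum only (-1.04) and was at 0.04 after removal of the trend. No paired analysis was possible because each condition has 1 library, and with unknown depth no counting error can be given.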

Other observations

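Neighbouring genes of the pathway differed in ratio between libraries, each value being a ratio of RPKM in a single library. SQLE stood at 0.156 of FDFT1 without and 0.0436 with AIL on empty vector, and 0.0757 without and 0.0328 with AIL on AR1-651. INSIG1 stood at 2.44 times HMGCS1 with empty vector and 2.11 with AR1-651, and at 0.483 and 0.286 with AIL. SC5D stood at 0.187 of DHCR7 without and 0.517 with AIL on empty vector, and 0.231 without and 1.31 with AIL on AR1-651. These pairs were chosen after their values were seen.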
